A study of Danio rerio with 6 samples.

Results

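Transcripts of 40 genes of the red blood cell lineage were followed: the alpha and beta globins, the enzymes of heme synthesis, the transcription factors that drive red cell formation, the proteins of the red cell membrane, and genes of iron uptake. The genes were a list of names, found in the table through their symbols. Of the 40 names, 34 matched 36 gene identifiers among the 24462 in the table, 2 of them through a capital symbol that lacks the paralogue letter (SLC4A1 for slc4a1a, ANK1 for ank1a). The 6 names hbba1, hbba2, hbbe1.1, hbbe1.2, hbbe1.3 and hbbe2 matched none. A further 7 identifiers carry the symbol HBE1, that of a human beta-type globin, and the tables used here do not say which zebrafish beta globin each one is. They are described beside the list and not counted in it.

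The samples were 6 pools, each of 10 whole zebrafish embryos from the wild-type line Tropical 5D, taken at 48 h after fertilization. From 8 h on, 3 pools had been kept in 47 µM FBSA (perfluorobutane sulfonamide, a perfluorinated compound with a short carbon chain) and the other 3 in medium with 0 µM. The chorion had been removed at 4 h and the medium of both groups held 0.5% methanol. Transcripts were counted by sequencing from their 3′ ends, and levels are given as normalized counts, that is reads divided by a size factor for each library.

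Red cells carry oxygen on hemoglobin, in which alpha and beta globin chains each hold a heme. Heme is made in a chain of enzyme steps that begins with an aminolevulinate synthase, Alas2 in red cells, and ends with ferrochelatase, which inserts iron into the porphyrin ring. Gata1 and Klf1 switch on the globin and heme genes, while band 3, ankyrin, spectrin, protein 4.1 and adducin form the membrane and its skeleton. Zebrafish embryos have circulating primitive red cells by this stage and express embryonic globins, with adult globins following later, and several of the genes below are known from zebrafish mutants with too few or pale red cells, whose names are given in brackets.

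The libraries held 23906021 to 33356411 reads in genes, and 1 gene without a symbol took 20.2% to 22.8% of them. The red cell label was borne out for the embryonic globins hbae1.1, hbae1.2, hbae1.3, hbae3 and hbbe3, which each held at least 10611 normalized counts in every library. The embryonic globin hbae5 held only 107 to 191. In whole embryos, fewer red cells and less RNA per red cell cannot be told apart. Of the 36 identifiers, 32 reached 10 normalized counts in 3 or more libraries and were tested, and hbaa1, hbaa2, FECH and SLC25A37 were not.

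With FBSA, 1 of the 32 rose, 0 fell and 31 did not pass (limma, Benjamini-Hochberg adjusted p under 0.05 over 16890 genes), where 0.705% of all genes tested passed in either direction, 0.568% higher and 0.136% lower. The gene that rose was tspo. At an unadjusted p under 0.05, limma gave 3 higher members (tspo, KLF3, slc11a2) and 4 lower ones (an SLC4A1 and an ANK1 identifier, hemgn, add2), 21.9% of the members against 13.6% of all genes tested (7.34% higher and 6.25% lower). The median log2 fold change was −0.06 over the 32 members and −0.0009 over all genes tested. The 6 globin members tested all had a negative log2 fold change, as did 7 of 8 membrane and skeleton identifiers, while 4 of 6 heme synthesis identifiers had a positive one. Of all genes tested, 50.2% had a negative log2 fold change. These counts of signs are not a test. The members were measured in the same 6 pools, and the hbae1 copies may share reads, so they are not independent.

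**Figure D1:**
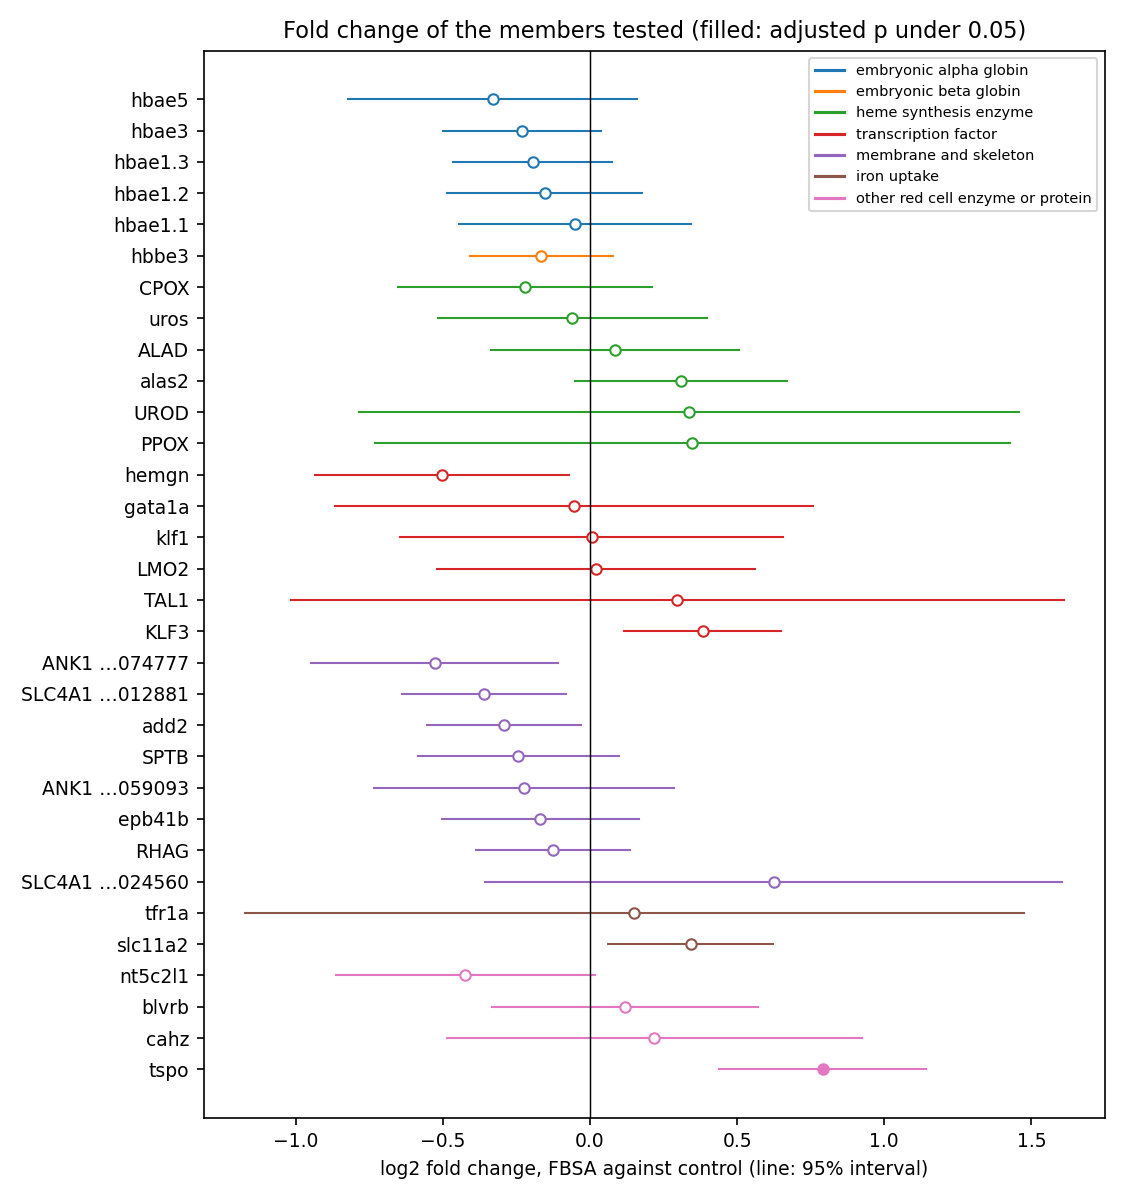
Log2 fold change of the 32 identifiers tested, FBSA against control, by role, with 95% intervals from limma; a filled point marks an adjusted p under 0.05. The intervals of 25 identifiers cross 0, and tspo, at 0.79, is the only filled point.

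Among the embryonic alpha globins, hbae3 held 104058, 89746 and 93219 normalized counts in control replicates 1, 2 and 3 and 74305, 73019 and 99120 in FBSA replicates 1, 2 and 3. FBSA replicates 1 and 2 lay below all controls and FBSA replicate 3 lay among them, so the groups overlapped. Its means were 95674 ± 7465 and 82148 ± 14712 (SD, n = 3 each), a log2 fold change of −0.23 ± 0.12 SE (limma adjusted p = 0.444). The gene hbae5 was far scarcer, with 163, 191 and 165 normalized counts in control and 168, 107 and 142 with FBSA. Its log2 fold change was −0.33 ± 0.23 SE (limma adjusted p = 0.553), and again the groups overlapped. The embryonic beta globin hbbe3 held 11463, 13360 and 14802 normalized counts in control and 12175, 10611 and 12450 with FBSA (log2 fold change −0.16 ± 0.11 SE, limma adjusted p = 0.548).

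The adult alpha globins were close to absent. Over all 6 libraries hbaa1 had 51 reads and hbaa2 7 reads, against 543004 reads of hbae3. For hbaa1 this came to 9.2, 15.4 and 4.5 normalized counts in control and 0, 4.7 and 18.3 with FBSA, and for hbaa2 no library exceeded 3.4. Neither reached 10 normalized counts in 3 or more libraries, and without that filter neither passed (limma adjusted p = 0.757 for hbaa1 and 0.955 for hbaa2).

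**Figure D2:**
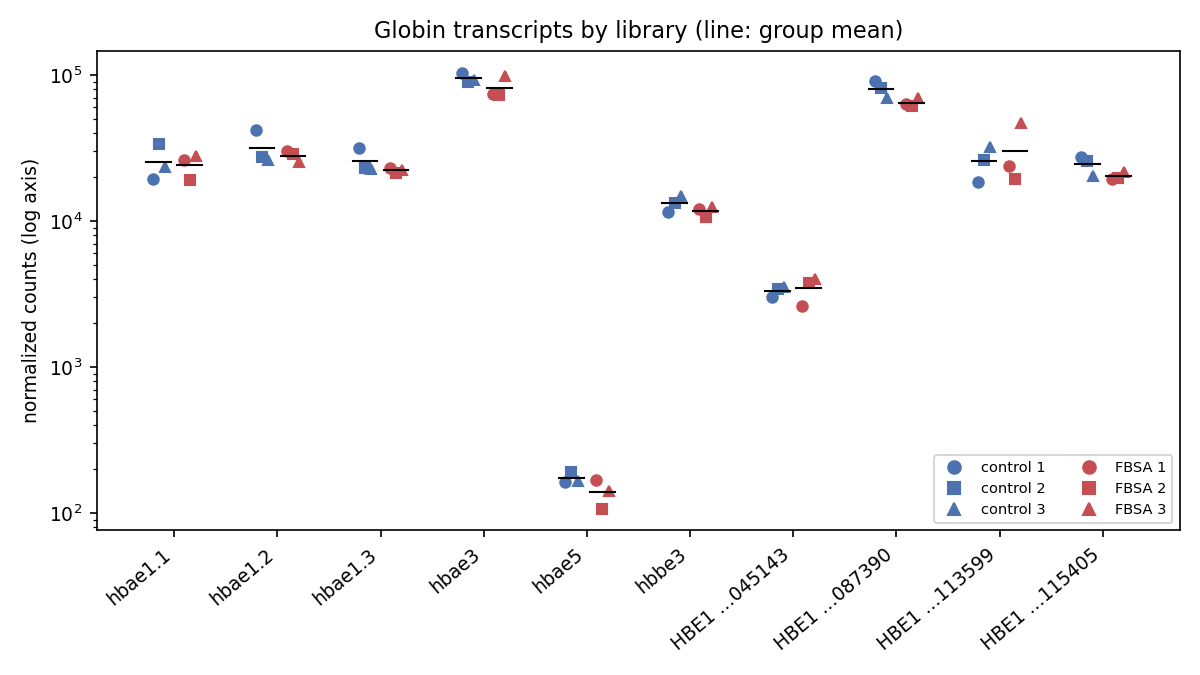
Normalized counts (log axis) of the 6 globin members tested and of the 4 most abundant HBE1 identifiers, labelled by the last digits of their identifiers, in each of the 3 control and 3 FBSA libraries; a black line marks each group mean. For hbae3 the FBSA mean of 82148 lies below the control mean of 95674, with FBSA replicate 3 among the controls.

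The embryonic alpha globin hbae1 is present as neighbouring copies. In the RefSeq annotation of assembly GRCz12tu, used here for gene order alone, hbae1.1, hbae1.2, hbae1.3 and hbae3 stand in 1 cluster with the adult globins and hbbe1.1 to hbbe1.3, alpha and beta genes alternating over much of it, and hbae4, hbbe3, hbbe2 and hbae5 stand in another. Reads that match more than 1 copy may have been dropped or assigned to either, which was not given in the sources used here, so values of single copies are uncertain. For hbae1.1 the libraries held 19548, 33448 and 23453 normalized counts in control and 25981, 19025 and 27960 with FBSA. For hbae1.2 they held 41896, 27647 and 26121, and 29948, 28729 and 25549. For hbae1.3 they held 31795, 22990 and 22655, and 23196, 21187 and 22468. The groups overlapped for each copy, and the log2 fold changes were −0.05, −0.15 and −0.19, none past the threshold (limma adjusted p = 0.927, 0.697 and 0.528).

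The hbae1.1 copy did not follow the other two. In control replicate 1, hbae1.1 was low while hbae1.2 and hbae1.3 were at their highest, and in control replicate 2 hbae1.1 was at its highest. The share of hbae1.1 in the sum of the 3 copies ran from 21.0% in control replicate 1 to 39.8% in control replicate 2, so it differed more between these controls than between the group means of 31.1% ± 9.48 and 32.4% ± 4.62 (SD, n = 3 each). The summed level was steadier: 93239, 84085 and 72229 normalized counts in control and 79125, 68940 and 75977 with FBSA. Its means were 83184 ± 10534 and 74681 ± 5215 (SD, n = 3 each), with overlapping groups.

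**Figure D3:**
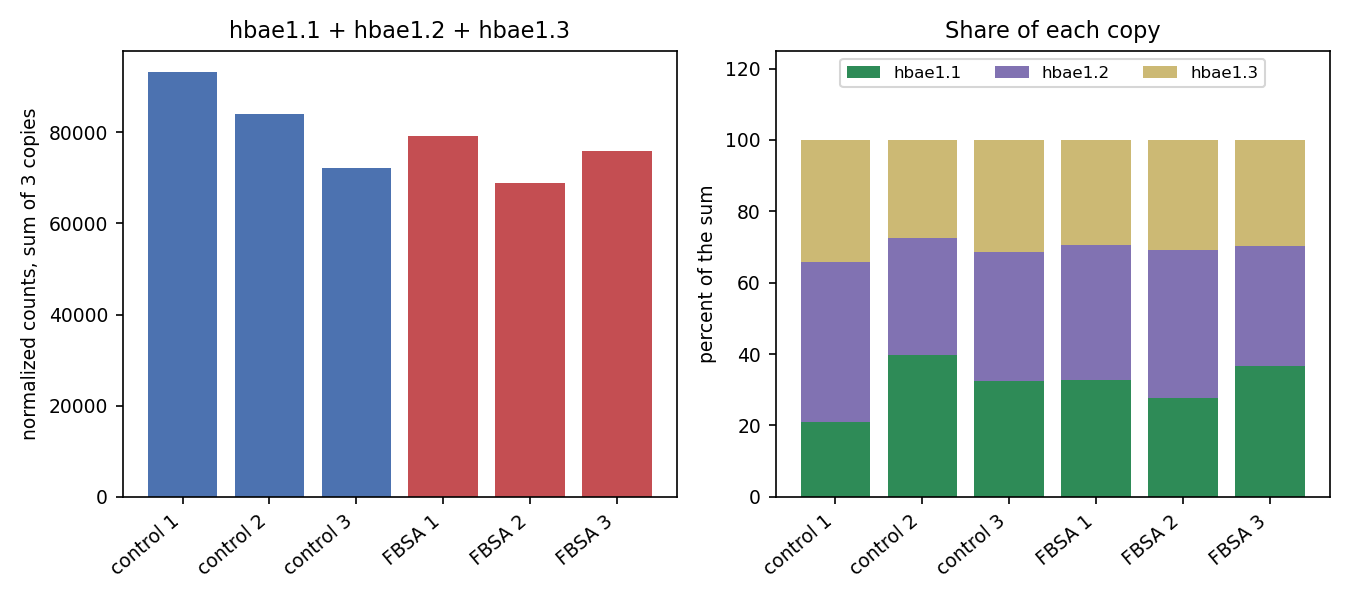
Left, summed normalized counts of hbae1.1, hbae1.2 and hbae1.3 in each library, from 68940 in FBSA replicate 2 to 93239 in control replicate 1. Right, the percent of that sum from each copy; hbae1.1 makes up 21.0% in control replicate 1 and 39.8% in control replicate 2.

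Of the 7 HBE1 identifiers, 4 were abundant. ENSDARG00000087390 held 90780, 81390 and 70119 normalized counts in control and 63476, 61308 and 69731 with FBSA. All 3 FBSA libraries lay below all controls, the nearest by a small margin, and the log2 fold change was −0.31 ± 0.11 SE (limma adjusted p = 0.241). ENSDARG00000115405 went in the same direction, with a log2 fold change of −0.28 ± 0.12 SE (limma adjusted p = 0.32), and its groups overlapped. ENSDARG00000113599 was uneven, with 18484, 26320 and 32139 normalized counts in control and 23677, 19280 and 46868 with FBSA. Its log2 fold change was positive, at 0.15 ± 0.27 SE (limma adjusted p = 0.847). The fourth, ENSDARG00000045143, held 2624 to 4027 normalized counts across all libraries. It had a log2 fold change of 0.04 ± 0.15 SE (limma adjusted p = 0.922). The other 3 identifiers reached at most 38.5 normalized counts in any library. Of the 6 HBE1 identifiers tested, 3 had a positive and 3 a negative log2 fold change, and 0 passed (limma). Where these identifiers share reads, single values are uncertain, as for hbae1. ENSDARG00000087390 made up 49.0% of the sum of all 7 in FBSA replicate 3, against 55.6% to 64.8% in control. ENSDARG00000113599 made up 32.9% there, against 13.2% to 25.5% in control. The sum was 139987, 136927 and 126182 normalized counts in control and 109149, 103951 and 142299 with FBSA. Its highest library was FBSA replicate 3, so the groups overlapped.

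Taking the 8 globin members together, 0.776%, 0.649% and 0.665% of the reads in genes were globin reads in control and 0.574%, 0.552% and 0.666% with FBSA. The means were 0.696% ± 0.0694 and 0.597% ± 0.0608 (SD, n = 3 each), so the FBSA mean was 14.2% lower, and FBSA replicate 3 exceeded control replicates 2 and 3. With the HBE1 identifiers added, the shares were 1.18% ± 0.0982 and 1.02% ± 0.134 (SD, n = 3 each), again overlapping. These shares are given without a test, and each covers reads of the whole embryo.

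Of the 6 heme synthesis identifiers tested, 0 passed in either direction and 0 had an unadjusted p under 0.05 (limma). The first step in red cells, alas2 (sauternes in zebrafish), held 591, 414 and 571 normalized counts in control and 658, 703 and 576 with FBSA. FBSA replicates 1 and 2 were the highest and control replicate 2 the lowest, and FBSA replicate 3 lay below control replicate 1. The log2 fold change was 0.31 ± 0.17 SE (limma adjusted p = 0.443), with a 95% interval from −0.05 to 0.67, and it was 0.15 without control replicate 2. In contrast to the 6 globin members tested its sign was positive, and neither sign was past the threshold.

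ALAD encodes the enzyme that joins aminolevulinate molecules into porphobilinogen. It held 231, 308 and 239 normalized counts in control and 236, 327 and 262 with FBSA. The groups overlapped, and the log2 fold change was 0.08 ± 0.19 SE (limma adjusted p = 0.883). The coproporphyrinogen oxidase gene CPOX had a log2 fold change of −0.22 and uros, of the step that closes the ring, −0.06. UROD (yquem) and PPOX (montalcino) were scarce, at 17.3 to 57.1 and 19.0 to 71.3 normalized counts, and their log2 fold changes of 0.34 and 0.35 had SEs of 0.52 and 0.50. In UROD the highest library was FBSA replicate 1 and in PPOX FBSA replicate 2. FECH (dracula), the ferrochelatase gene of the last step, had 61 reads over all libraries, with 3.0 to 16.8 normalized counts per library, and was not tested.

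Of the 6 red cell transcription factors and nuclear proteins, 0 passed (limma). At an unadjusted p under 0.05, 1 was higher (KLF3) and 1 lower (hemgn), 33.3% of the 6 against 13.6% of all genes tested. For gata1a (vlad tepes), the master regulator of the lineage, the libraries held 67.1, 49.8 and 45.4 normalized counts in control and 42.4, 84.5 and 37.6 with FBSA. FBSA replicate 2 was the highest of all libraries and FBSA replicate 3 the lowest, so the spread within the FBSA group exceeded the difference of the means (log2 fold change −0.05 ± 0.37 SE, limma adjusted p = 0.965). Its 95% interval ran from −0.87 to 0.76. The log2 fold change of klf1, whose product activates globin genes, was 0.01 ± 0.30 SE, and LMO2, which encodes an adaptor of the Gata1 and Tal1 complex, had 0.02 ± 0.25 SE. For gata1a, klf1 and TAL1 the mean count and the log2 fold change differed in sign. The signs of klf1 and LMO2 turned negative when libraries were scaled by total reads (−0.03 and −0.01).

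KLF3 encodes a related factor that represses transcription and is not limited to blood. It held 1034, 901 and 910 normalized counts in control and 1209, 1347 and 1156 with FBSA, so every FBSA library lay above every control. The log2 fold change was 0.38 ± 0.12 SE, which did not pass (limma adjusted p = 0.196). Hemogen, encoded by hemgn, is a nuclear protein of developing blood cells. It held 356, 287 and 312 normalized counts in control and 175, 236 and 270 with FBSA, all FBSA libraries below all controls (log2 fold change −0.50 ± 0.20 SE, limma adjusted p = 0.291).

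Genes of the red cell membrane and its skeleton had a median log2 fold change of −0.23 over 8 identifiers, the lowest of the role groups, and 0 of 8 passed. At an unadjusted p under 0.05 limma gave 3 lower and 0 higher among these 8, where 6.25% of all genes tested were lower and 7.34% higher. SLC4A1 encodes band 3, the chloride and bicarbonate exchanger (retsina in zebrafish). Its identifier ENSDARG00000012881 held 1893, 1586 and 1568 normalized counts in control and 1148, 1362 and 1425 with FBSA. All FBSA libraries lay below all controls, with means of 1683 ± 183 and 1312 ± 145 (SD, n = 3 each; log2 fold change −0.36 ± 0.13 SE, limma adjusted p = 0.245). The other SLC4A1 identifier, ENSDARG00000024560, was scarce, at 23.7 to 95.2 normalized counts, and its log2 fold change was 0.62 ± 0.45 SE. Which of them is slc4a1a is not given in the tables used here.

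Ankyrin, encoded by ANK1, ties band 3 to the spectrin skeleton. ENSDARG00000074777 held 452, 651 and 557 normalized counts in control and 400, 297 and 459 with FBSA, where FBSA replicate 3 lay just above control replicate 1 (log2 fold change −0.53 ± 0.19 SE, limma adjusted p = 0.261). The other ANK1 identifier, ENSDARG00000059093, had −0.22 ± 0.23 SE. Which of them is ank1a is not given in the sources used here. Adducin 2, encoded by add2, caps the actin filaments of the skeleton and is also made in neurons. It held 1003, 954 and 1056 normalized counts in control and 868, 810 and 780 with FBSA, all below the controls (log2 fold change −0.29 ± 0.12 SE, limma adjusted p = 0.31).

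SPTB (riesling), the beta spectrin gene, held 604, 591 and 621 normalized counts in control and 452, 466 and 633 with FBSA. FBSA replicates 1 and 2 were low and FBSA replicate 3 was the highest of all (log2 fold change −0.24 ± 0.16 SE). For epb41b (merlot), the protein 4.1 gene, the groups did not overlap, but the log2 fold change was only −0.17 ± 0.15 SE. RHAG, of the Rh ammonium channel family, held 1326, 1356 and 1208 normalized counts in control and 1210, 1288 and 1073 with FBSA (log2 fold change −0.13 ± 0.12 SE, limma adjusted p = 0.679).

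Iron uptake genes were few. For slc11a2 (chardonnay), the divalent metal transporter that moves iron out of endosomes and is also made in other tissues, the control libraries were tight at 547, 552 and 539 normalized counts and the FBSA libraries held 656, 689 and 735. Every FBSA library was above every control, and the log2 fold change was 0.34 ± 0.13 SE (limma adjusted p = 0.27). The transferrin receptor gene tfr1a (chianti) held only 18.4, 8.3 and 10.2 normalized counts in control and 10.4, 15.0 and 14.2 with FBSA. SLC25A37 (frascati), the mitochondrial iron importer gene, had 47 reads over all libraries and was not tested.

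The only call on the list was tspo, which encodes a translocator protein of the outer mitochondrial membrane that binds porphyrins and cholesterol and is made in many cell types. It rose from 744, 816 and 977 normalized counts in control to 1153, 1725 and 1544 with FBSA. All FBSA libraries were above all controls, FBSA replicate 1 by the smallest margin. The control mean was 845 ± 119 and the FBSA mean 1474 ± 292 (SD, n = 3 each). On the log2 scale the difference was 0.79 ± 0.16 SE, or 1.73-fold (limma adjusted p = 0.0494). The adjusted p lay between 0.0275 with robust moderation and 0.214 without FBSA replicate 2 over 18 alternative settings, and the call was lost in 12 of them, among them without any 1 library other than FBSA replicate 1.

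Of the other red cell proteins, nt5c2l1, a cytosolic nucleotidase gene, held 227, 200.5 and 292 normalized counts in control and 170, 163 and 198 with FBSA, so the groups did not overlap (log2 fold change −0.42 ± 0.20 SE, limma adjusted p = 0.387). The carbonic anhydrase gene cahz held 1096, 349 and 675 normalized counts in control and 769, 951 and 556 with FBSA. Control replicates 1 and 2 were its highest and lowest libraries, and the log2 fold change of 0.22 ± 0.32 SE turned to −0.21 without control replicate 2. The biliverdin reductase B gene blvrb had 0.12 ± 0.21 SE. Over the whole list, the groups did not overlap for 3 members that were higher (KLF3, slc11a2, tspo) and 5 that were lower (the first SLC4A1 identifier, epb41b, hemgn, nt5c2l1, add2), 25.0% of the 32, against 19.9% of all genes tested (10.0% higher and 9.91% lower).

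**Figure D4:**
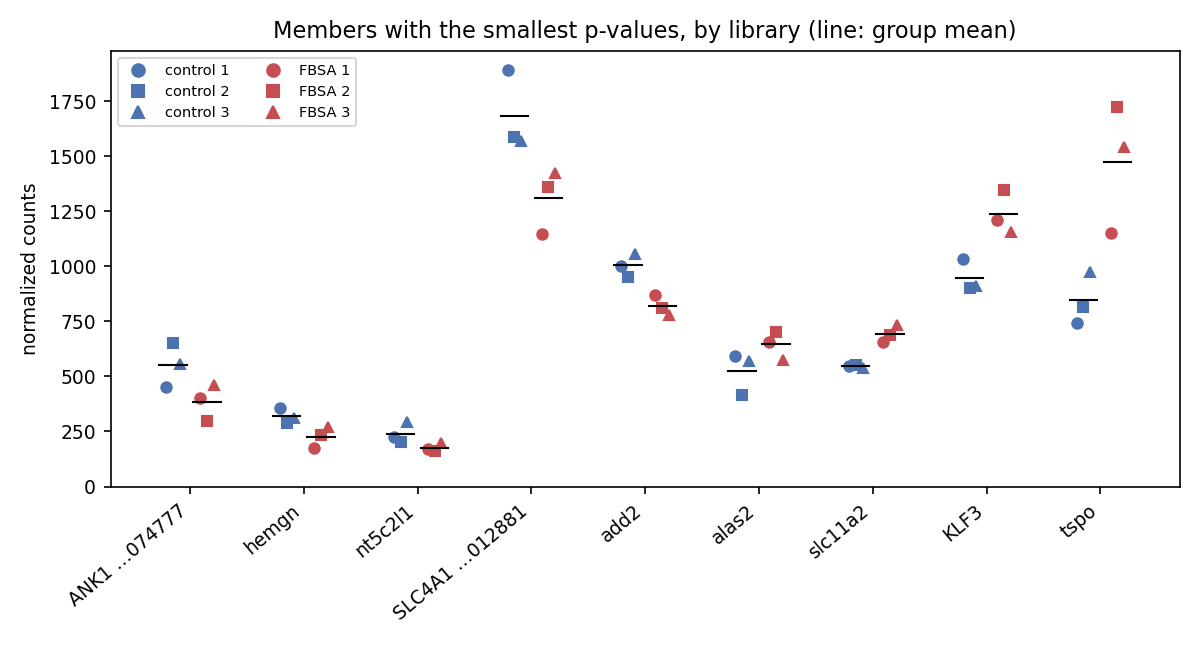
Normalized counts of the 9 identifiers with the smallest p-values, in each of the 3 control and 3 FBSA libraries, ordered by log2 fold change; a black line marks each group mean. The FBSA libraries lie below the controls for SLC4A1, hemgn, nt5c2l1 and add2 and above them for slc11a2, KLF3 and tspo, whose FBSA mean is 1474 against 845.

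Single libraries set several values. Control replicate 1 was the highest library for 10 of the 32 identifiers, control replicate 2 was the lowest for 9, and FBSA replicate 2 was the lowest for 8 and the highest for 7. Such counts were not taken over all genes tested, so they do not tell whether these libraries stand out for red cell genes. The largest spread was in TAL1, which encodes a helix-loop-helix factor of blood and vessel precursors. It held 132, 16.6 and 94.3 normalized counts in control and 49.3, 83.5 and 96.5 with FBSA, a 7.98-fold range between control replicates 1 and 2. Its log2 fold change was 0.30 ± 0.60 SE, and −0.60 without control replicate 2. Without that library the median of the 32 members moved from −0.06 to −0.16. For the 8 membrane and skeleton identifiers, the role group of lowest median, medians of the log2 difference from the control mean were taken per library. They were −0.31, −0.29 and −0.20 in the FBSA libraries and 0.02, −0.05 and 0.01 in control. Taking the control mean as reference pulls the control medians toward 0, so they do not measure how steady the controls were. In the 5 embryonic alpha globins they were −0.06, −0.39 and −0.18 with FBSA and 0.12, −0.09 and −0.08 in control.

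**Figure D5:**
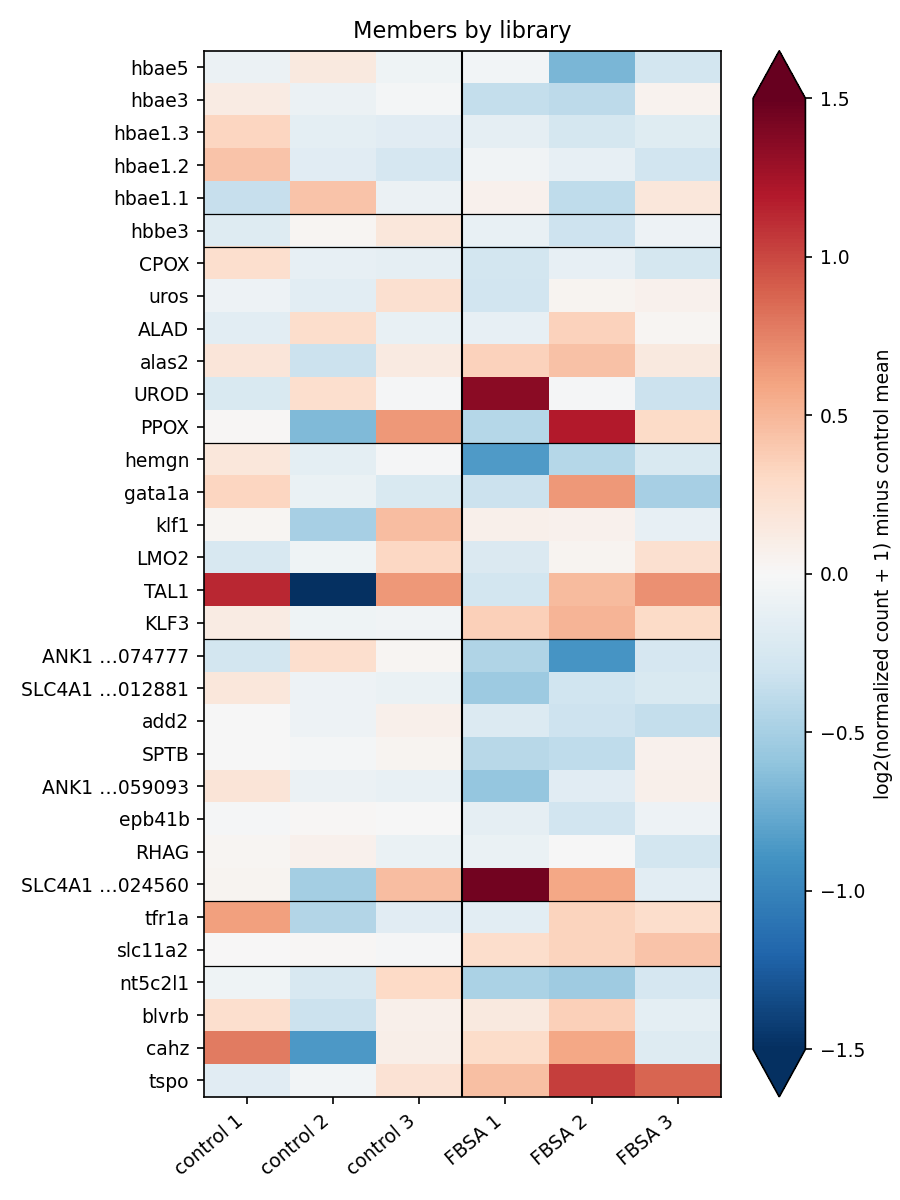
Each row is 1 of the 32 identifiers tested and each column a library; colour gives log2(normalized count + 1) minus the control mean, cut at 1.5 either way. TAL1 and cahz are low in control replicate 2. ANK1 (ENSDARG00000074777), SLC4A1 (ENSDARG00000012881), add2 and epb41b are below the control mean (blue) in all 3 FBSA columns. So are hemgn, nt5c2l1, CPOX, RHAG, hbbe3, hbae5, hbae1.2 and hbae1.3, though RHAG is nearly level in FBSA replicate 2, at −0.008. Above the control mean (red) in all 3 FBSA columns are alas2, KLF3, slc11a2 and tspo. The share of all genes tested that lie on 1 side in this way was not taken, so these lists only describe the picture. The ANK1 identifier named above is also blue in control replicate 1, at −0.28.

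Other genes of iron and heme handling did not pass. Their summed level came mostly from the transferrin gene tfa and from fth1a. It was 25601 to 27796 normalized counts in control and 30379 to 30653 with FBSA, without overlap. For tfa alone the groups overlapped (log2 fold change 0.12 ± 0.10 SE, limma adjusted p = 0.65). The groups did not overlap for 19.2% of the 26 identifiers tested, against 19.9% of all genes tested. Of 26 identifiers tested, 0 rose and 0 fell by the adjusted p, 3 higher and 1 lower had an unadjusted p under 0.05 (limma), 15.4% of the 26 against 13.6% of all genes tested. The median log2 fold change was 0.13. The ferritin heavy chain gene fth1a, whose product stores iron, had 0.40 ± 0.10 SE (limma adjusted p = 0.109), with 7920, 8143 and 9017 normalized counts in control and 9990, 11812 and 11226 with FBSA. All FBSA libraries were higher. HJV, the hemojuvelin gene, which is also made in skeletal muscle, had 0.68 ± 0.20 SE (limma adjusted p = 0.174). FLVCR1, a heme and choline transporter family gene, had −0.53 ± 0.17 SE (limma adjusted p = 0.209). The ferroportin gene SLC40A1 (weissherbst) was nearly level, at −0.0006 ± 0.11 SE.

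A second list of red cell genes held 20 identifiers tested, of which 10 had a positive and 10 a negative log2 fold change and 0 passed (limma). At an unadjusted p under 0.05, 2 were higher and 2 lower, 20% against 13.6% of all genes tested. Those with the smallest p-values were LDB1 (ENSDARG00000010137), a partner of Lmo2, with a log2 fold change of −0.30 ± 0.11 SE, DMTN, the dematin gene, with 1.57 ± 0.61 SE at no more than 25.4 normalized counts in any library, and mgst3b with 0.30 ± 0.12 SE. The summed level of the 25 identifiers matched was 20139 to 21397 normalized counts in control and 17275 to 19857 with FBSA, without overlap, and most of it came from SOX6, LDB1, ADD3 and TMOD4, which are also expressed outside blood. The limma adjusted p-values of LDB1, DMTN and mgst3b were 0.269, 0.285 and 0.311. The erythropoietin gene epoa and the receptor gene EPOR lay under the minimum and were not tested.

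Markers of neighbouring cell types were measured because tspo, KLF3, TAL1 and LMO2 are not limited to red cells. Of the 10 myeloid identifiers tested 7 had a positive and 3 a negative log2 fold change, with a median of 0.41, and 0 passed (limma). At an unadjusted p under 0.05, 2 were higher and 1 lower, 30% against 13.6% of all genes tested. The 3 negative ones were lyz, SPI1 (−0.28) and CORO1A (−0.30). The 7 positive ones were MMP9, TIMP2 identifiers ENSDARG00000061226 and ENSDARG00000075261, marco (0.73), CEBPA (0.37), LCP1 and NCF1. Of these, LCP1 and NCF1 reached at most 13 and 34.6 normalized counts. The names mpx, mpeg1.1, mfap4.1 and lect2l matched no identifier. TIMP2 (ENSDARG00000061226) had 0.56 ± 0.17 SE, with every FBSA library above every control, MMP9 had 1.62 ± 0.63 SE with overlapping groups, and lyz, a lysozyme gene of neutrophils and macrophages, had −0.36 ± 0.15 SE. Their limma adjusted p-values were 0.182, 0.283 and 0.304. The summed level of the 11 matched, mostly lyz, was 4274 to 5518 normalized counts in control and 4163 to 4410 with FBSA.

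Of the 10 endothelial identifiers tested 6 had a positive and 4 a negative log2 fold change and 0 passed (limma). At an unadjusted p under 0.05, 1 was higher (SOX7), 10% against 13.6% of all genes tested. The summed level of the 11 matched was 1985 to 2102 normalized counts in control and 2213 to 2483 with FBSA, without overlap. Without SOX7, a choice made after the values were seen, it was 1373 to 1542 and 1502 to 1560, with overlap. SOX7 held 632, 560 and 612 normalized counts in control and 711, 923 and 843 with FBSA. The positive log2 fold changes were 0.83 (FLI1), 0.68 (tek), 0.45 (SOX7), 0.33 (she), 0.19 (EGFL7) and 0.17 (flt1). The negative ones were −0.03 (kdrl), −0.02 (cdh5), −0.08 (TIE1) and −0.36 (ESAM), and the median of the list was 0.18. Groups overlapped for all of these genes but SOX7. The remaining identifier, KDR, was too scarce to be tested. It held 5.0, 0 and 2.3 normalized counts in control and 19.0, 13.1 and 8.1 with FBSA, without overlap. The names pecam1, etv2 and sox18 matched no identifier.

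Of the 5 thrombocyte identifiers tested 3 had a positive and 2 a negative log2 fold change, with a median of 0.10, and 0 passed (limma). At an unadjusted p under 0.05, 1 was higher (THBS1), 20% against 13.6% of all genes tested. The platelet glycoprotein genes had negative log2 fold changes, −0.68 ± 0.38 SE for GP1BB, with every FBSA library below every control, and −0.65 ± 0.44 SE for gp9, whose groups overlapped (limma adjusted p = 0.46 and 0.551). THBS1 (ENSDARG00000010785), a gene of many tissues, had 0.55 ± 0.12 SE (limma adjusted p = 0.0732). The other THBS1 identifier had 0.43 ± 0.23 SE and f13a1b 0.10 ± 0.31 SE, both with overlapping groups. The sum of the 7 matched, mostly THBS1, was 1503 to 1709 normalized counts in control and 1956 to 2412 with FBSA, while the defining markers itga2b and mpl were at 0 to 4.1. Of 3 stem and progenitor identifiers tested 0 passed and 0 had an unadjusted p under 0.05 (limma). All 3 had a positive log2 fold change, 0.48 ± 0.26 SE for MYB, 0.37 ± 0.36 SE for CEBPA and 0.04 ± 0.10 SE for MEIS1. The summed level of the 5 matched, mostly MEIS1, was 3688 to 4086 in control and 3970 to 4383 with FBSA, with RUNX1 at 0 to 3.4 normalized counts. The part of these cell types in the levels of the genes above was not tested.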

How the data were processed

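Per the labels' protocols, single-end libraries of pooled embryos were made with a Lexogen QuantSeq 3′ FWD kit. STAR, HTSeq, DESeq2 and the build GRCz11 are named in the submitters' processing notes. Versions, annotation and the treatment of multiply matching reads are not given in the sources used here. Deposited values are log2 values with a common floor of 6.52, and the table's header names stand 1 cell left of their values, which was corrected. The values have the form of a variance-stabilising transformation by the authors. With floor f and value v, the normalized count is the square of (2 to the v minus 2 to the f), divided by 2 to the v. All values then lay within 0.1 of whole reads after multiplication by 1 factor per library (largest distance 0.0197).

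Genes that reached 10 normalized counts in 3 or more libraries were tested as log2(normalized count + 1) with limma 3.58.1 in R 4.3.3 (group as the only term, moderation with a trend, two-sided, Benjamini-Hochberg over 16890 genes). Fold changes on this scale understate those of low genes. Intervals are 95% from the moderated fit. The labels do not say whether pools stem from different clutches, and p-values therefore reflect pool-to-pool spread, which may be technical.

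The members, their roles and the further lists were chosen with earlier results of these data known. Symbols came from a gene name table that matched 22817 identifiers. An identifier named EPB41 was left out because epb41b had its own. Unlike epb41b it had a positive log2 fold change, 0.15 ± 0.14 SE (limma adjusted p = 0.665). Values per library are given for members past the threshold, the 2 most abundant per role, the 10 of smallest p, gata1a, alas2 and the globins. Up to 3 genes of smallest p are named per further list. Other genes named, such as TAL1, SPTB, SLC40A1, gp9, kdrl, cdh5 and TIE1, were chosen after their values were seen. Promoter and protein sequences were not used here, and 1 item of the list is not reported here. Alternatives covered pseudocount, filter, scaling, the deposited log2 values, limma-voom, robust moderation, the replicate block and libraries left out. Python 3.11.15, numpy 2.4.6, pandas 2.3.3, scipy 1.17.1 and matplotlib 3.10.9 were used.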

Additional observations from a re-analysis of the deposited data

How the results depend on the processing

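Over 18 alternatives the 32 members gave 575 values, of which 529 kept direction and side of the threshold, 34 reversed, all of genes without a call, and 12 were tspo losing its call. The count of members that rose was 0 with a pseudocount of 0.5, a filter of 20, scaling by all reads or by reads outside the globins and the top gene, limma-voom, or both libraries numbered 2 left out, and 0 to 1 with 1 library left out. Over all alternatives the log2 fold change of tspo was 0.65 to 0.96. The median of the members was −0.19 without both libraries numbered 2, and −0.16 (without control replicate 2) to −0.065 with 1 left out. Shares of the globin members in reads outside the top gene were 0.892% in control and 0.760% with FBSA. They did not overlap there, by a narrow margin: control replicate 2 held 0.839% and FBSA replicate 3 held 0.835%. With the HBE1 identifiers added, the shares outside the top gene overlapped.

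With 1 library left out, 46 to 87 genes rose and 4 to 23 fell over all genes (96 and 23 with all libraries), and 2 to 5 members were higher and 2 to 6 lower at an unadjusted p under 0.05 (limma). A replicate block gave 40 genes higher, 7 lower and 0 members, with an adjusted p of 0.0801 for tspo. Same-numbered libraries did not deviate together (correlations 0.02, −0.14 and −0.005), and no library correlated best with its own number. The numbers were therefore not taken as pairs.

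Reversed log2 fold changes were, scaled by all reads, −0.025 (klf1) and −0.0092 (LMO2); scaled by reads outside the globins and the top gene, −0.035 and −0.019; and from the deposited log2 values, −0.0063 (klf1). Without both libraries numbered 2 they were 0.33 (hbae1.1), −0.41 (PPOX), −0.27 (klf1), −0.69 (TAL1), −0.024 (LMO2), −0.17 (tfr1a), −0.39 (cahz) and −0.16 (blvrb). With 1 library left out the ranges were −0.22 to 0.16 (hbae1.1), −0.28 to 0.060 (hbae1.2), −0.045 to 0.22 (ALAD), −0.14 to 0.060 (uros), −0.17 to 0.67 (UROD), −0.074 to 0.74 (PPOX), −0.41 to 0.16 (gata1a), −0.24 to 0.24 (klf1), −0.60 to 0.87 (TAL1), −0.10 to 0.17 (LMO2), −0.072 to 0.46 (tfr1a), −0.21 to 0.61 (cahz) and −0.044 to 0.25 (blvrb). The cause was not tested. The genes hbaa1, hbaa2, FECH and SLC25A37 lay under the minimum of 10 normalized counts. Without it none passed (limma adjusted p 0.736 to 0.986).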
